A study of Mus musculus with 36 samples.

Results

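Contacts of 4 developmental gene loci were compared between embryoid bodies (EB) at day 6 and embryonic stem cells (ES) at day 0, both Whsc1-/- (KO), in mouse. Whsc1, also called Nsd2, is a histone methyltransferase. The assay was UMI-4C, in which DNA ends lying close together in the nucleus are ligated and the partners of a chosen viewpoint are read with molecular identifiers. The authors' tables list 4314 genomic positions around the Foxa2, Gata4, Gata6 and T viewpoints, and the 4140 positions with a finite contact score in both KO columns were used. They numbered 983 for Foxa2, 1073 for Gata4, 1051 for Gata6 and 1033 for T. In mm10 the viewpoints lie on chromosome 2 at 148046914 (Foxa2), on chromosome 14 at 63245606 (Gata4), on chromosome 18 at 11053621 (Gata6) and on chromosome 17 at 8433756 (T). The Foxa2, Gata4 and Gata6 viewpoints fall inside the gene spans, and the T viewpoint lies in the span of LOC115486424, 0.667 kb before the T span. The lower side of a viewpoint has smaller coordinates and the higher side larger ones. Each column pools 2 libraries, so the KO comparison rests on 16 of the 32 contact libraries and on 8 of the 16 columns.

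The ES KO cells were kept on gelatine in medium with inhibitors and leukaemia inhibitory factor or in serum medium, without a statement of which was used for these libraries. The EB KO samples were aggregates formed from such cells as hanging drops and then grown in suspension. Wild-type cells (WT), read at the same stages, served only for comparison. The labels do not say whether the knockout line was 1 clone or which cell types the EB held. The 4 RNA-seq libraries were not analysed here, so neither the loss of Whsc1 nor the state of the EB was checked against expression. With 1 pooled column per group there is neither replicate error nor depth, so the stages were compared as 2 profiles in score units, with no test. The log base of the scores is not given in the sources used here, so no fold is stated.

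A promoter works together with distant DNA that reaches it by folding of the chromatin fibre, and contact frequency falls with genomic distance except where loops or domains bring regions together. During differentiation such contacts can be gained or lost as enhancers become active or silent. Foxa2, Gata4 and Gata6 encode factors of endoderm, the GATA factors also of heart, and T (Brachyury) encodes a T-box factor of early mesoderm.

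The promoters below are shown because they sit in the parts of the T locus where the stages differed most in KO cells at gene starts over 10 kb from the viewpoint. They come from RefSeq (GRCm38.p6), run from 250 bases before to 50 bases after the start, and are printed in the direction of transcription. Gm33799 (chr17:8272468-8272767, minus strand) and a start of Ccr6 (chr17:8242276-8242575, plus strand) had higher scores in EB, Sft2d1 (chr17:8310853-8311152, plus strand) had lower ones, and T (chr17:8434173-8434472, plus strand) lies beside the viewpoint. Capitals mark AGGTGT or its reverse complement ACACCT, a core that T-box factors bind.
Gm33799: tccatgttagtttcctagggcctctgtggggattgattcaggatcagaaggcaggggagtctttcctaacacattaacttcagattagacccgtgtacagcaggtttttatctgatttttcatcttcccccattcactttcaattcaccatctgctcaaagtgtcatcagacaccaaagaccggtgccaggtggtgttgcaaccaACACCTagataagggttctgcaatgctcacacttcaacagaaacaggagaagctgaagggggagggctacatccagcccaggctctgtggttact
Ccr6: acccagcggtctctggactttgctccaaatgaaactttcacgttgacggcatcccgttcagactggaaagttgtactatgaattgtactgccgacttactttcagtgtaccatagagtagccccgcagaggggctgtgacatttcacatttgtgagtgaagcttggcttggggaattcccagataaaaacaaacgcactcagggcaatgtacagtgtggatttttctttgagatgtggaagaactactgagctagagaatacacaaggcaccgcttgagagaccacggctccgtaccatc
Sft2d1: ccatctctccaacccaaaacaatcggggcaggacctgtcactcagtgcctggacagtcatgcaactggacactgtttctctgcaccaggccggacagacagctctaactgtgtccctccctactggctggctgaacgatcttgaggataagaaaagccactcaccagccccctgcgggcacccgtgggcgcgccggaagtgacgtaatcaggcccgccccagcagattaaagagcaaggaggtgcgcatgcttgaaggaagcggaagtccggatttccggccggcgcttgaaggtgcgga
T: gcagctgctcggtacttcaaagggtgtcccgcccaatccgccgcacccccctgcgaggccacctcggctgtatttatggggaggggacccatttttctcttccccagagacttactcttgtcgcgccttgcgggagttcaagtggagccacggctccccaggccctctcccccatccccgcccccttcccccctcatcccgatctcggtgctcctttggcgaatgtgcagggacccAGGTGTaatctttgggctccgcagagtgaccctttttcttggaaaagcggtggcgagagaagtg
Gm33799 and T hold 1 match each, and the Ccr6 and Sft2d1 windows hold 0. Of all 32851 RefSeq promoters of this length, 13.7% hold a match on either strand, and a match is a description of letters, not of binding. Within 5 kb of the Gm33799 start the score was -0.49 in ES KO and -0.093 in EB KO, a difference of 0.39. At the printed Ccr6 start it was -0.64 and -0.26, a difference of 0.39, and at the Sft2d1 start -0.65 and -1.01, a difference of -0.36. Ccr6 has another start, at 8236043, where the difference was 0.22, and the start with the larger difference was printed. At the T start, among only 6 positions, the score was 2.53 and 2.57.

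The KO profiles of the stages lay close together at Gata4, somewhat further apart at Foxa2, and furthest apart at Gata6 and T. Mean scores were taken over 10 kb windows on each side, starting 10 kb away from the viewpoint, which gave 162 windows of at least 10 positions. Foxa2 had 38 of them, Gata4 had 41, Gata6 had 41 and T had 42. The mean absolute difference between EB KO and ES KO was 0.051 for Gata4, 0.11 for Foxa2, 0.16 for T and 0.19 for Gata6. In 87 of the 162 windows the stages differed by less than 0.1, among them 36 of 41 at Gata4, 20 of 38 at Foxa2, 16 of 41 at Gata6 and 15 of 42 at T. Averaged over all positions of a locus, EB minus ES in KO lay between -0.0043 and 0.0027, so regions with higher and with lower scores balance within a locus by arithmetic.

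**Figure D1:**
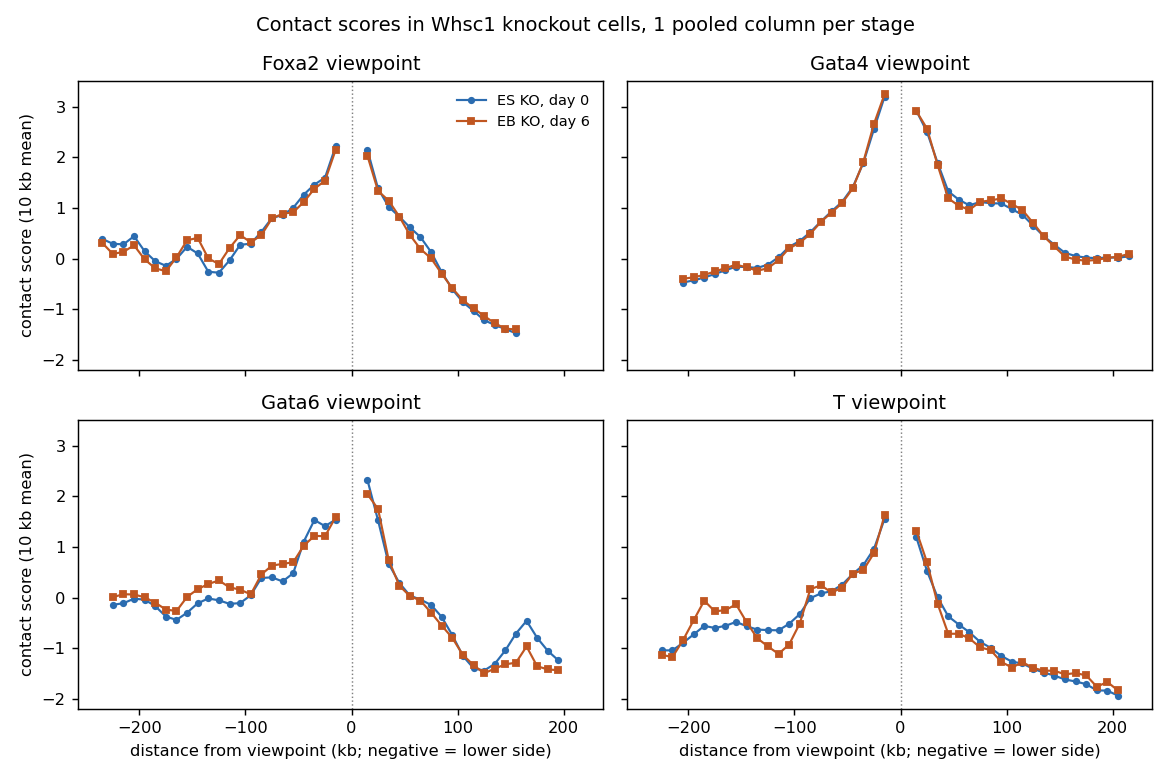
Mean contact score per 10 kb window (y axis, score units) against distance from the viewpoint (x axis, kb, negative on the lower side) in ES KO (circles) and EB KO (squares), 1 pooled column each. The stages nearly coincide at Gata4. At Gata6 and on the lower side of T, the windows 0.3 or more apart lie mostly from 100 kb outward. Gata6 also has such windows at 30 to 40 and 60 to 70 kb of its lower side.

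A difference of at least 0.3 was found in 18 of the 162 windows (11.1%), 9 higher in EB (5.56%) and 9 lower (5.56%). With the median difference of each locus removed, 16 windows reached it, 5 higher and 11 lower, so the even split depends on the scaling. Gata6 held 9, T held 8, Foxa2 held 1 and Gata4 held 0. A size of 0.5 was reached by 3 windows (1.85%), each with a lower score in EB KO and each beyond 150 kb on the higher side of Gata6, and by 1 when windows of 20 kb were used. By distance, 15 of the 90 windows from 100 kb outward reached 0.3, beside 1 of 40 at 50 to 100 kb and 2 of 32 at 10 to 50 kb. By side, they were 13 of 87 lower-side windows and 5 of 75 higher-side windows. The 18 windows fell into 9 blocks of neighbours. Since the scores change smoothly along the chromosome, windows of a block are not separate observations.

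**Figure D2:**
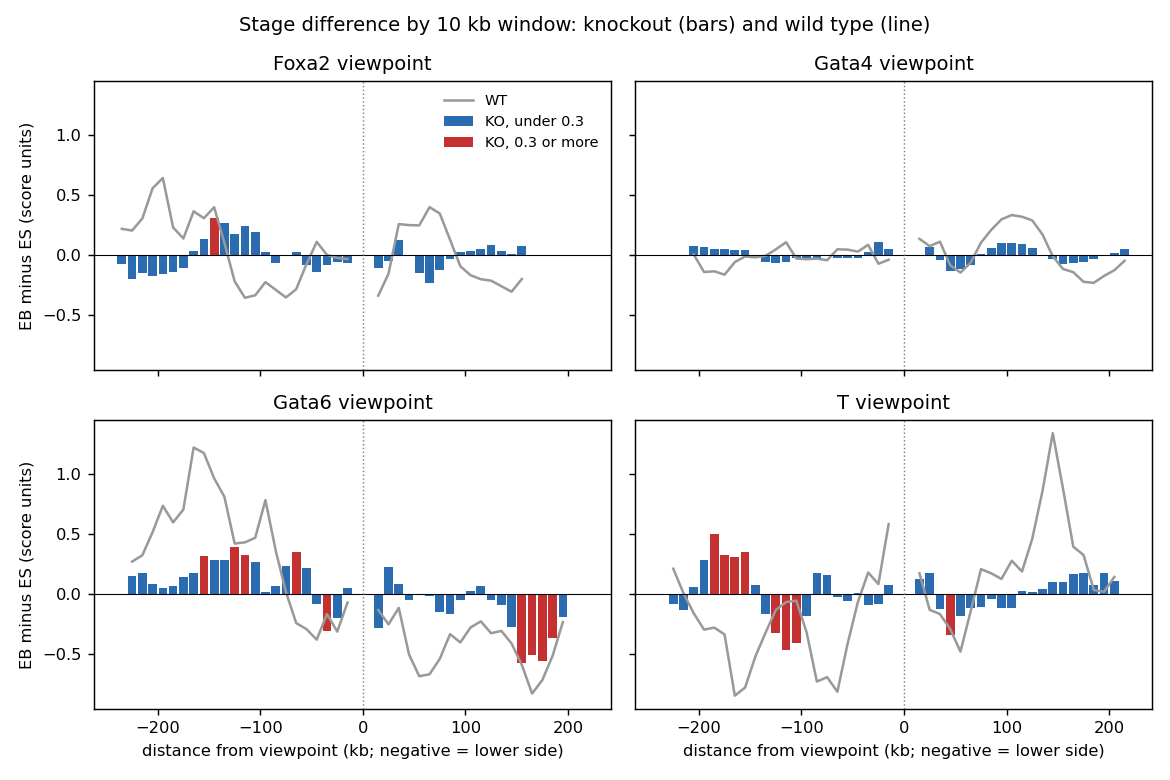
EB minus ES (y axis, score units) per 10 kb window against distance from the viewpoint (x axis, kb, negative on the lower side), with KO as bars, red at an absolute difference of 0.3 or more, and WT as a grey line. The KO bars reach 0.3 in 18 of 162 windows, and the WT line in 62.

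The broadest region with lower scores in EB KO was on the higher side of Gata6. Across 150 to 190 kb (chromosome 18, 11203621 to 11243620), where the gene table holds no gene, the mean score was -0.75 in ES KO and -1.25 in EB KO, a difference of -0.50. At single positions the run of differences of at least 0.3 was unbroken for 39.0 kb and 90 positions, from 147.2 to 186.2 kb, and the most extreme was -0.76 at 160.4 kb. Both stages had a local maximum at the same position, 161.1 kb out, where the score was -0.38 in ES KO and -0.89 in EB KO. Its prominence, the height over the higher of the low points reached on either side before a higher score, was 1.02 in ES and 0.63 in EB. The maximum was thus at the same place and lower in EB. The WT scores over the same 40 kb were -0.63 in ES and -1.30 in EB, a difference of -0.67, so this block differed between stages in the same direction in both genotypes.

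On the lower side of Gata6 the EB KO scores were higher over much of Gm35814, a long non-coding RNA gene (chromosome 18, 10888414 to 10997808). Its whole span had a mean of 0.059 in ES KO and 0.29 in EB KO, and EB was higher at 229 of its 247 positions. The span holds windows picked for passing 0.3, so this count is no separate support. At 110 to 130 kb the score was -0.085 in ES KO and 0.27 in EB KO, a difference of 0.36, beside 0.42 in WT. This stretch also holds the pseudogene Gm7575. An EB maximum of prominence 0.45 stood at 129.1 kb, at 0.44 in EB KO and 0.038 in ES KO, and no ES maximum of prominence 0.3 lay within 10 kb of it. At 150 to 160 kb the score was -0.29 and 0.018, a difference of 0.31, where the WT difference was 1.18. At 60 to 70 kb, still in Gm35814, it was 0.32 in ES KO and 0.67 in EB KO, a difference of 0.35, and here WT had -0.24. The highest distal ES KO windows of Gata6, at 50 to 60, 70 to 80 and 80 to 90 kb in Gm35814, had 0.48, 0.40 and 0.39 and differed by 0.22, 0.23 and 0.068. With the median difference of the locus removed, the differences at 60 to 70 kb and 150 to 160 kb were 0.299 and 0.27, under the size of 0.3. The 3 blocks of this gene span therefore had the same direction in KO, while WT differed in direction at the nearest of them.

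Closer to Gata6, a maximum of ES KO had no match of prominence 0.3 within 10 kb in EB KO, which does not show a contact lost. At 36.8 kb on the lower side ES KO had a maximum of 1.75 with a prominence of 0.53, and EB KO had 1.31 there. The window at 30 to 40 kb (chromosome 18, 11013622 to 11023621), without an annotated gene, had 1.53 in ES and 1.22 in EB, a difference of -0.31, beside -0.17 in WT. Within the Gata6 gene itself (chromosome 18, 11052510 to 11085636) the direction alternated along the span. Under 10 kb on the higher side the mean over 15 positions was 2.54 in ES KO and 2.95 in EB KO, a difference of 0.41, with -0.16 in WT. From 11.2 to 14.9 kb, over 8 positions, it was 2.53 and 2.05, a difference of -0.48, with -0.13 in WT. Over the whole gene these parts offset each other, at 2.00 in ES KO and 2.10 in EB KO. The neighbouring non-coding gene Gata6os had 2.99 and 3.08.

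At T the KO stages differed in 2 lower-side regions, with opposite signs. The nearer one, at 100 to 130 kb (chromosome 17, 8303757 to 8333756), had a mean of -0.60 in ES KO and -0.997 in EB KO, a difference of -0.40, and -0.087 in WT. It holds Sft2d1, which encodes a membrane protein related to yeast factors of vesicle transport, and part of the non-coding gene 4930506C21Rik. Over the Sft2d1 span (chromosome 17, 8311088 to 8327442) the score was -0.63 in ES KO and -1.08 in EB KO, and EB was lower at 28 of 28 positions. Over 4930506C21Rik it was -0.63 and -0.87, and EB was lower at 47 of 47. These spans lie in or beside a region picked for its difference, and neighbouring positions carry similar scores. The counts of positions are thus no separate support. The single-position run of at least 0.3 covered 25.1 kb, and the stages lay furthest apart at 109.0 kb, by -0.51.

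The further region of T, at 150 to 190 kb (chromosome 17, 8243757 to 8283756), had a mean of -0.55 in ES KO and -0.17 in EB KO, a difference of 0.37. It holds most of Ccr6, a chemokine receptor gene, the non-coding Gm33799 and the pseudogene Gm8465. Over Ccr6 (chromosome 17, 8236041 to 8258519) the score was -0.60 in ES KO and -0.19 in EB KO, with EB higher at 44 of 44 positions, and over Gm33799 it was -0.58 and -0.28, again higher at 44 of 44. These spans overlap, share positions and lie in or beside a region picked for its difference, so the counts of positions are no separate support. EB KO had maxima at 182.5 kb in Ccr6, with a score of 0.079 and a prominence of 1.22, and at 158.3 kb, with 0.060 and 0.49. Their scores were nearly equal. Only the lower of them is measured to the dip between them, so the prominences do not show different heights over it. Another maximum stood at 77.7 kb in T2, a gene next to T, with 0.31 and 0.35. ES KO had no maximum of prominence 0.3 at T, and its scores at these 3 positions were -0.50, -0.42 and 0.087. In WT the difference over the 150 to 190 kb block was -0.56, from -0.35 in ES to -0.91 in EB, opposite to KO. Between the 2 regions, Mpc1, a gene for the pyruvate carrier of mitochondria, had -0.58 and -0.56 in KO.

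The rest of the T locus differed less between the KO stages. On the higher side, the window at 40 to 50 kb (chromosome 17, 8473756 to 8483755) had -0.37 in ES KO and -0.71 in EB KO, a difference of -0.34, close to the -0.29 of WT. Over the covered part of Pde10a, a cyclic nucleotide phosphodiesterase gene, the scores were -1.56 and -1.50, and EB was higher at 225 of 282 positions by small amounts, with a greatest difference of 0.24. The T gene had 2.23 in ES KO and 2.19 in EB KO over 11 positions, and T2 had 0.60 and 0.59. The distal T windows with the highest ES KO scores, from 50 to 80 kb on the lower side within T2, had 0.26, 0.13 and 0.086 and differed by -0.061, -0.025 and 0.16. Next to the viewpoint, under 10 kb on the lower side, the mean over 11 positions was 2.34 in ES KO and 2.60 in EB KO, a difference of 0.26, with 0.18 in WT.

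Foxa2 had 1 window that reached 0.3. It covered 140 to 150 kb of the lower side (chromosome 2, 147896915 to 147906914). Here, where the non-coding gene Gm35579 starts, the score was 0.10 in ES KO and 0.41 in EB KO, a difference of 0.31, and WT had 0.075 and 0.47, a difference of 0.40. The nearest EB maximum stood at 145.4 kb, with a prominence of 0.67 and a score of 0.51 in EB KO and of 0.51 in EB WT. The ES KO maximum of this stretch lay further out, at 155.8 kb, with 0.29 and a prominence of 0.48. A further maximum was present at both stages, with 0.51 at 202.7 kb in ES KO and 0.34 at 202.5 kb in EB KO. The window at 200 to 210 kb had a difference of -0.18 in KO and 0.56 in WT. KO and WT also had opposite signs at 100 to 110 kb, with 0.19 and -0.34, and at 110 to 120 kb, with 0.24 and -0.36. Over 9030622O22Rik, the non-coding gene that fills the near lower side, the score was 1.15 and 1.10, and its windows from 50 to 80 kb, the highest distal ones of Foxa2 in ES KO, had 1.00, 0.86 and 0.81 and differed by -0.088, 0.026 and -0.0095. Under 10 kb on that side the mean over 14 positions was 2.61 in ES KO and 2.29 in EB KO, a difference of -0.32 with -0.075 in WT, and differences at single positions ran from -0.41 to -0.17. On the higher side, the window at 60 to 70 kb had the lowest Foxa2 difference, -0.24, where WT had 0.40.

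Gata4 hardly differed between the KO stages. Its windows ran from -0.14 at 40 to 50 kb on the higher side to 0.10 at 20 to 30 kb of the lower side, and no position from 10 kb outward reached 0.3. The Gata4 gene had 2.89 in ES KO and 2.93 in EB KO. Of its neighbours, Neil2, a DNA glycosylase gene, had 1.08 and 1.06, Fdft1, which encodes squalene synthase, had 0.60 and 0.57, and Ctsb, a lysosomal protease gene, had 0.11 and 0.065. Blk, a kinase gene of B cells, had 0.22 and 0.18, and Fam167a had 0.031 and 0.051. An EB maximum of prominence 0.32 in the transcript Gm4151, 76.4 kb out on the higher side, had 1.23 in EB KO and 1.19 in ES KO, so the prominence passed the size while the score differed little. The distal windows with the highest ES KO scores were at 50 to 60 kb on either side and at 70 to 80 kb in Gm4151, from 1.12 to 1.17, and their stage differences ran from -0.12 to 0.0029.

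**Figure D3:**
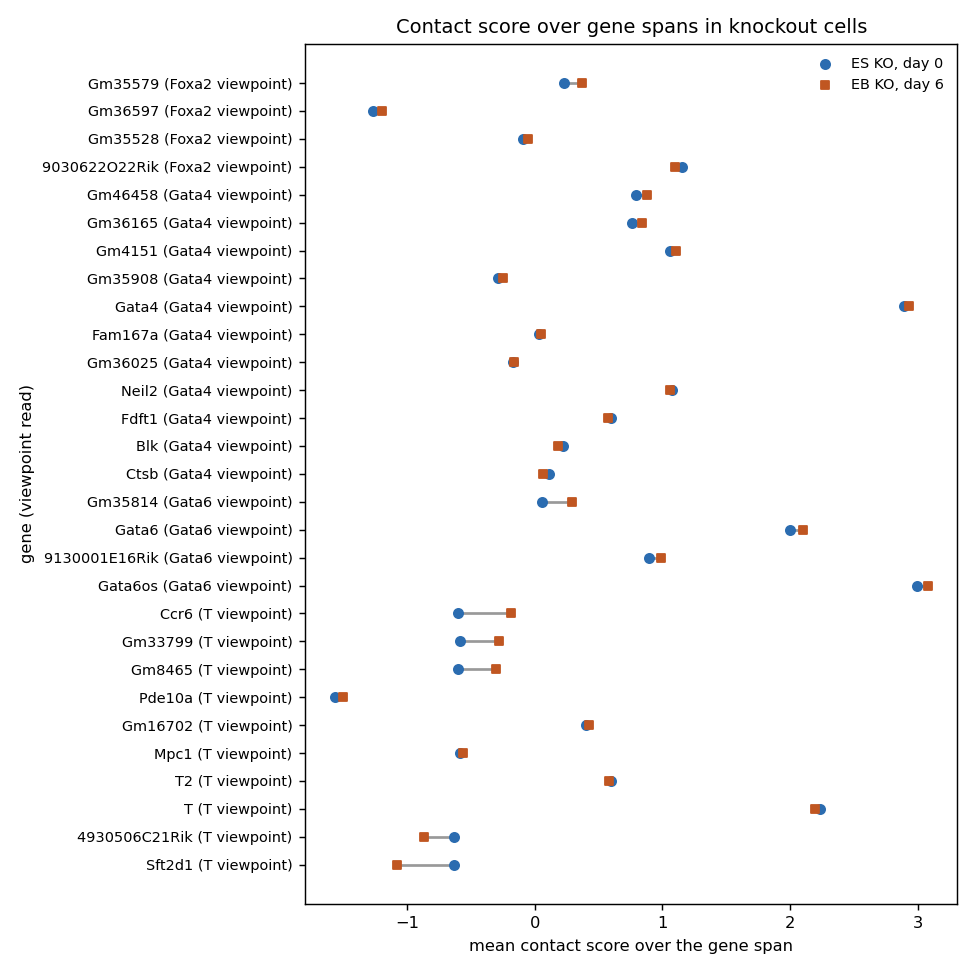
Mean contact score over each gene span with at least 10 positions (x axis, score units) for 29 genes (y axis, with the viewpoint read) in ES KO (circles) and EB KO (squares), joined by a grey line. Ccr6, Gm33799 and Gm8465 lie to the right in EB and Sft2d1 and 4930506C21Rik to the left, all at the T viewpoint.

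Among all 29 gene spans with a value, 22 differed by less than 0.1 between the KO stages, and 3 by at least 0.3: Ccr6, Sft2d1 and Gm33799. Over all windows 53.7% differed by less than 0.1 and 11.1% by at least 0.3, so the share of spans at 0.3 was near that of the windows. The median was 0.041, with 20 spans higher and 9 lower in EB. The 13 protein-coding spans had a median of -0.015, with 6 higher and 7 lower, and the 16 others a median of 0.072, with 14 higher and 2 lower. Most were small, with 11 of the 13 and 11 of the 16 under 0.1. Over all windows 82 were higher and 80 lower in EB KO. The other spans overlap in part and several share a block, so these counts are not independent. At T, 3 spans reached 0.3 out of 10, and at the other 3 viewpoints none of the 19 did, though Gm35814 at Gata6 had 0.23. The windows gave another picture, with 9 of 41 at Gata6 beside 8 of 42 at T, since the block on the higher side of Gata6 holds no gene. Pde10a is covered only in part.

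By distance band and side, the sign at Gata6 followed the side from 50 kb outward, with higher EB scores on the lower side and lower ones on the higher side. On its lower side EB minus ES in KO was -0.14 at 10 to 50 kb, 0.16 at 50 to 100 kb, 0.31 at 100 to 150 kb and 0.14 beyond. On its higher side the same bands had 0.0070, -0.079, -0.067 and -0.43. At T the lower side had -0.022, -0.010, -0.27 and 0.19 and the higher side -0.096, -0.11, 0.0057 and 0.13. At Foxa2 the lower-side band at 100 to 150 kb had 0.23, and the other bands from 10 kb outward lay between -0.093 and 0.087. At Gata4 the bands from 10 kb outward lay between -0.046 and 0.053. Under 10 kb the band means rest on 11 to 18 positions and reached 0.41 at Gata6 and -0.32 at Foxa2.

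**Figure D4:**
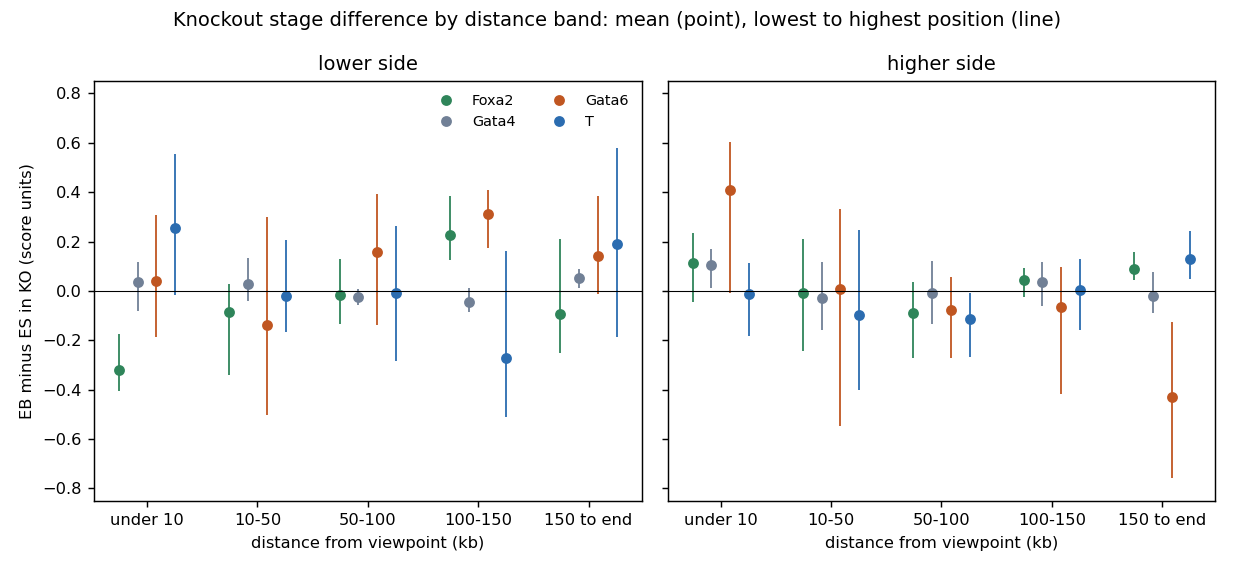
EB minus ES in KO (y axis, score units) by distance band (x axis, kb) on the lower (left) and higher (right) side of each viewpoint, with the mean as a point and the lowest and highest single position as a line, which is not a replicate error. Gata6 beyond 150 kb on the higher side has the lowest mean from 10 kb outward, -0.43.

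The balance of the sides was nearly the same at both KO stages except at Gata6. The mean of lower-side minus higher-side windows at equal distances was 0.66 in ES KO and 0.96 in EB KO at Gata6, a difference of 0.30 over 19 distances, and the lower-side stage difference was the greater at 16 of them. With the windows of below-median score left out, this difference was -0.057. Scores fall with distance, and the distances still held on both sides then ran only from 10 to 60 kb. The value of -0.057 is thus a contrast near the viewpoint, and low score and distance cannot be told apart here. At T the contrast was 0.87 and 0.89, at Foxa2 0.78 and 0.85, and at Gata4 -0.35 and -0.34. The lower-side stage difference was the greater at 11 of 20 distances at T, 11 of 15 at Foxa2 and 13 of 20 at Gata4. The slope of the score on the log10 of distance was -2.99 in ES KO and -3.35 in EB KO on the higher side of Gata6, and -1.76 and -1.50 on its lower side. The steeper and the shallower side thus moved apart in EB. At T both sides were shallower in EB, by 0.15 on the lower and 0.15 on the higher side. With 20 kb left out at the viewpoint these were 0.25 and 0.30, and the higher side of Gata6 was steeper in EB by -0.64 rather than -0.36. Windows from 50 kb outward minus nearer ones differed between the stages by 0.091 (Gata6), 0.053 (T), 0.049 (Foxa2) and -0.0048 (Gata4). With low-score windows left out the first 2 were 0.27 and 0.15. At both loci the only higher-side window from 50 kb outward then kept was at 50 to 60 kb. These 2 values thus compare mostly lower-side distal windows and are not the same contrast. With distal windows taken from 100 kb outward the 4 values were 0.012 (Gata6), 0.091 (T), 0.087 (Foxa2) and 0.014 (Gata4), so neither the order of the loci nor the sign at Gata4 held.

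Set beside WT, which shares no column with KO, the contacts that differed in KO were of 3 kinds. In 8 of the 18 KO windows WT also reached 0.3 in the same direction: 7 at Gata6 (4 on the higher side from 150 to 190 kb and 3 over Gm35814) and the Foxa2 window at 140 to 150 kb. In 7 windows WT stayed under 0.3, with the sign of KO in 5 and the opposite sign in 2, among them the 3 at 100 to 130 kb of T over Sft2d1 and the window at 60 to 70 kb of Gata6. In 3 windows, all at T from 150 to 180 kb on the lower side, WT reached 0.3 in the opposite direction. The next window, at 180 to 190 kb, is 1 of the 2 with opposite sign under the size, at 0.498 in KO, the highest of all KO windows, and -0.28 in WT, a gap of 0.78. Seen from WT, 62 of 162 windows (38.3%) reached 0.3. Of these 62, KO reached it in the same direction in 8 and in the opposite direction in 3. Over all 162 windows KO reached 0.3 in 18 (11.1%), in either direction. At Gata6 the KO difference had the sign of WT in 29 of the 29 windows that WT reached, with a median of 0.17 in the WT direction against 0.52 in WT. At T it had that sign in 12 of 18, at Foxa2 in 5 of 13 and at Gata4 in 2 of 2. Over all windows of a locus the sign was shared in 34 of 41 at Gata6, 23 of 42 at T, 14 of 38 at Foxa2 and 24 of 41 at Gata4. The KO difference minus the WT difference reached 0.5 in 30 windows (18.5%). With 1 pooled column per group these differences between the genotypes could not be tested.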

How the data were processed

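Contact scores were deposited by the authors as 1 table per viewpoint, with 1 score column for each stage and genotype, per the file headers. The labels list 2 libraries for each column, and no column is split by library. How the scores were scaled or smoothed is not given in the sources used here. BWA, STAR and deepTools are named with no role and mm10 as the build, per the submitters' processing notes. Neighbouring positions carry similar scores and are not separate measurements. Of the positions left out, 24 had an infinite KO score, all within 2.98 kb of a viewpoint, and 150 were blank, from 161.9 kb outward.

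Positions finite in both KO columns were averaged (Python 3.11.15, pandas 2.3.3, SciPy 1.17.1) in 10 kb windows from 10 kb outward, with at least 10 positions. Gene spans and starts came from RefSeq GRCm38.p6, the assembly of mm10, and spans and starts keep positions under 10 kb. Local maxima needed a prominence of 0.3 and were matched within 10 kb. Members, lists, sizes and the comparison with WT were chosen with earlier results of these data known. Named were windows of at least 0.3, the extreme windows and highest distal windows of a locus, protein-coding spans and maxima. Non-coding genes, starts, single-position runs and positions under 10 kb were added after their values were seen. Window counting was tested on simulated profiles. No depth is known, so no interval was computed.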

Additional observations from a re-analysis of the deposited data

Results flagged for a closer look

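3 neighbouring windows on the lower side of T had stage differences of opposite direction in the genotypes, each of at least 0.3. At 150 to 160 kb EB minus ES was 0.35 in KO and -0.78 in WT, so KO exceeded WT by 1.13. At 160 to 170 kb, over Gm33799, it was 0.31 and -0.85, a gap of 1.16. At 170 to 180 kb, where Gm33799 and Ccr6 overlap, it was 0.33 and -0.34, a gap of 0.67. The neighbouring window at 180 to 190 kb had 0.498 and -0.28, a gap of 0.78, with WT under the size. Neighbouring windows carry similar scores, each group has 1 pooled column, and the difference was not tested.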

How the results depend on the processing

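No paired analysis was possible because each column pools the 2 numbered libraries of its group, and for the same reason no library could be left out. With no replicate spread, a contrast counted as moved at a shift of 0.1 or more and a count at more than 1.5 times. Windows at 0.5 in KO numbered 3, but 5 with 5 kb windows (of 244), 1 with 20 kb windows (of 87), 0 at a size of 0.75 and 0 with low-score windows left out. Windows at 0.3 in KO numbered 18, but 7 with 20 kb windows and 9 (7 higher, 2 lower) with low-score windows left out (of 82). In WT, 62 at 0.3 became 94 with 5 kb and 32 with 20 kb windows, and the 30 windows of KO minus WT at 0.5 became 17 with 20 kb windows. These counts follow in part from the number of windows. Leaving out low-score windows took the Gata6 side contrast from 0.30 to -0.057 and the distal contrast to 0.27 at Gata6 and 0.15 at T. It also removed most distal higher-side windows at both loci, so these values cover other distances and sides. Leaving out 20 kb at the viewpoint took the slope differences to -0.64 (Gata6, higher side), 0.25 (T, lower side) and 0.30 (T, higher side). Maxima in ES KO and EB KO numbered 8 and 15 at a prominence of 0.2 and 2 and 3 at 0.5, against 4 and 8. The cause was not tested. The 86 other values of these contrasts and counts stayed within those limits, which do not protect a sign or order of small contrasts. The 9 blocks shifted by less than 0.1 in 18 of 18 alternatives, chosen after the values were seen. This is no check of the blocks, which had been picked for passing 0.3. Centring only removes a locus median of -0.021 (Foxa2), 0.046 (Gata6) or 0.021 (T), so it could not shift a block by 0.1. The other alternative is a median over the same positions. On centring 2 blocks fell under 0.3, Gata6 lower side at 60 to 70 kb (0.299) and at 150 to 160 kb (0.27). The WT and genotype counts under alternatives were also chosen after the values were seen. Depth is unknown, so what it limits cannot be stated.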

Other observations

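On the higher side of Gata4, where no KO window reached 0.3, the KO and WT stage differences followed each other along the chromosome: they had the same sign in 16 of 21 windows, with a Pearson r of 0.74. On its lower side the sign was shared in 8 of 20, with r of -0.59. At T the sign was shared in 15 of 20 higher-side windows (r 0.46) and 8 of 22 lower-side windows (r -0.42), at Gata6 in 15 of 19 (r 0.54) and 19 of 22 (r 0.40), and at Foxa2 in 4 of 15 (r -0.47) and 10 of 23 (r -0.33). The points are neighbouring windows of 4 columns and no p is given.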
